A study of Talaromyces pinophilus with 6 samples.

Results

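The 10 genes described here are the α-glucosidase genes that the study of *Talaromyces pinophilus*, a soft-rot filamentous fungus, named among its starch-degrading enzymes: *TP09781*, *TP11464*, *TP05120*, *TP00071*, *TP04013*, *TP11813*, *TP12265*, *TP03913*, *TP00293* and *TP03337*. They are 10 of the 11632 genes listed in at least 1 library. The study named them among the genes it found to differ between these same strains in these same libraries, so the strain difference took part in their choice. The fold changes, calls and sums given here describe that difference and are no independent support for it, and no count of members called is read against the share over all genes. RNA was sequenced in 3 libraries each of a parental strain, Δ*TpKu70* (*TpKu70* knocked out in strain 1-95), and a mutant, Δ*TP05746* (the transcription factor gene *TP05746* knocked out in that parent). Both strains therefore lacked *TpKu70*, a gene of DNA end joining that is often removed to ease gene targeting, and no library of a strain with an intact *TpKu70* was analysed here. All mycelium was grown on glucose, moved to soluble corn starch (SCS, at 1% w/v) and harvested 12 h later. The labels name 1 mutant genotype and do not say whether several transformants were used. Nor do they state whether replicate libraries are from independent cultures, and if they are not, the p-values reflect technical spread only.

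α-Glucosidases release glucose from the non-reducing end of maltose and short malto-oligosaccharides, the products that α-amylases leave when they cut starch. In fungi they fall mostly into glycoside hydrolase families GH13 and GH31, the former often intracellular maltases and the latter often secreted enzymes. In *Aspergillus* the transcription factor AmyR switches on amylase and α-glucosidase genes when maltose or isomaltose is present, and a genome usually holds several isogenes with different substrates and locations. In the annotation at hand, *TP00293* is the maltase MalT, *TP03337*, *TP05120* and *TP00293* carry GH13, and *TP03913*, *TP04013* and *TP00071* carry GH31. *TP00071* also carries CBM20, a starch-binding module. The annotation of the other 4 members was not used here.

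Library totals lay between 4091718 and 4696455 expected counts, the fractional read counts that RSEM assigns to each gene. The deleted gene *TP05746* had 135, 42 and 28 counts in the 3 parental libraries and 0 in every mutant library, at least 32.7-fold lower against a floor of 3 counts per library (at least 19.3-fold without parental replicate 1), which matched the labels. Δ*TpKu70* replicate 1 stood apart. Its log2 counts scaled to library size (CPM) across genes correlated with the other Δ*TpKu70* libraries at 0.898 and 0.89, whereas those 2 correlated at 0.965 and the Δ*TP05746* libraries at 0.96 to 0.979 among themselves. For 6 of the 10 members its level was intermediate, with the other parental libraries on one side and all mutant libraries on the other. The share of all genes with such a level was not computed, so this is not read as a trait of the members. Across genes, replicate 1 correlated with the mutant libraries at 0.712 to 0.733, and the other parental libraries did so at 0.591 to 0.641. These are bulk samples, so fewer hyphae of one kind and less RNA per hypha cannot be told apart.

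The question taken first was which isogene supplied most of the α-glucosidase transcripts in each library. Levels of different genes were compared on FPKM (fragments per kilobase of transcript, scaled to the mapped fragments of the library), which corrects for gene length, and the shares are of the summed FPKM of the 10 genes within a library, so they do not depend on scaling between libraries. In Δ*TpKu70*, *TP09781* was first in replicates 1 and 3 and second in replicate 2, and *TP05120* was first in replicate 2. In Δ*TP05746*, *TP11464* was first in replicates 2 and 3 and *TP05120* was first in replicate 1. *TP11464*, first or second in every Δ*TP05746* library, was neither in any Δ*TpKu70* library.

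**Figure D1:**
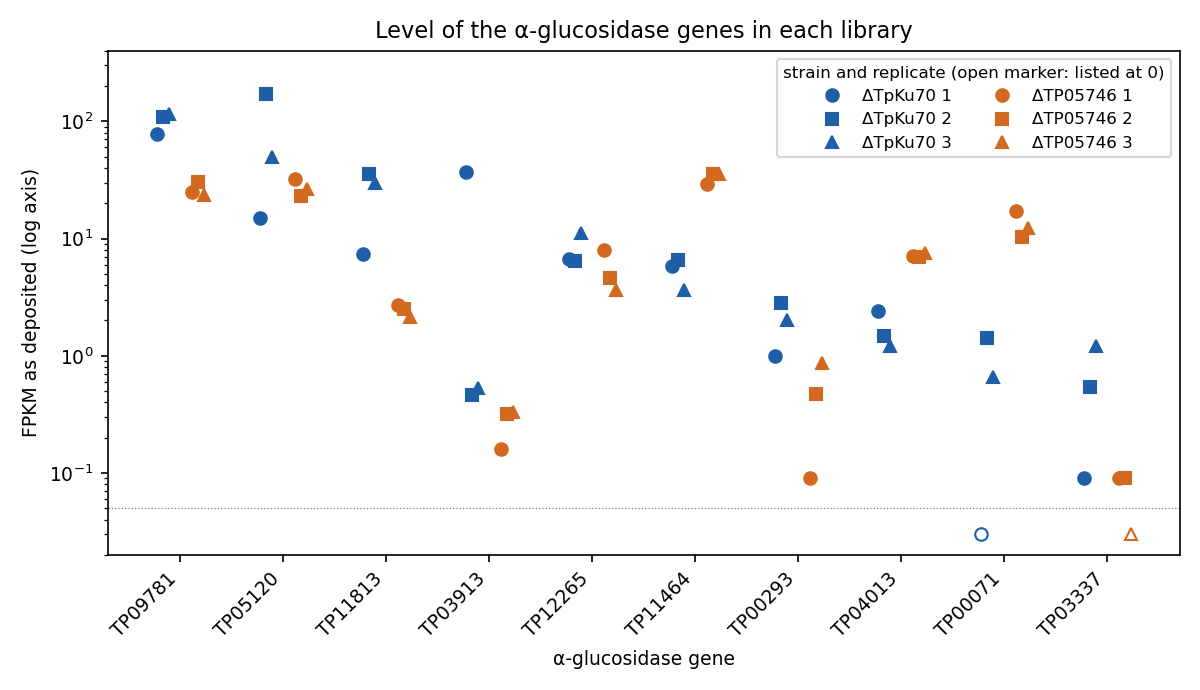
FPKM (log axis) of each of the 10 α-glucosidase genes in each library, Δ*TpKu70* in blue and Δ*TP05746* in orange, with genes ordered by mean Δ*TpKu70* level and open markers below the dotted line for a gene listed at 0. *TP09781* was at 77.76 to 115.41 in Δ*TpKu70* and 23.41 to 30.6 in Δ*TP05746*, while *TP11464* was at 3.66 to 6.62 and 29.4 to 35.8.

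*TP09781* stood at 77.76, 109.32 and 115.41 FPKM in the parental strain and at 25.08, 30.6 and 23.41 FPKM in the mutant. *TP11464* stood at 5.85, 6.62 and 3.66 FPKM in the parental strain and at 29.4, 35.8 and 35.33 FPKM in the mutant. By these values the order of the 2 genes was opposite in the 2 strains. In mutant replicates 1 and 2, however, the 2 genes were not separated beyond counting error, as given below. The ratio of *TP11464* to *TP09781* FPKM was 0.0752, 0.0606 and 0.0317 in the parental strain and 1.17, 1.17 and 1.51 in Δ*TP05746*, and the groups did not overlap. *TP05120* stood at 14.93, 171.2 and 49.85 FPKM in Δ*TpKu70*, the widest spread of the 3, and at 32.06, 23.2 and 26.23 FPKM in the mutant.

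The leading gene was clear of the second in the parental libraries and less so in the mutant. The 95% Poisson intervals, which cover counting error only, were 73.8 to 81.9 FPKM for *TP09781* and 34.3 to 39.8 for *TP03913* in Δ*TpKu70* replicate 1. They were 164 to 179 for *TP05120* and 105 to 114 for *TP09781* in replicate 2, and 111 to 120 for *TP09781* and 45.7 to 54.3 for *TP05120* in replicate 3. In Δ*TP05746* replicate 1 the intervals of *TP05120* (28.7 to 35.7) and *TP11464* (26.2 to 32.9) overlapped, so the order of the first 2 genes could not be told at this depth. The interval of *TP09781* there (22.8 to 27.5) overlapped with that of *TP11464* as well. In Δ*TP05746* replicate 2 those of *TP11464* (32.2 to 39.6) and *TP09781* (28.1 to 33.3) also overlapped. In replicate 3 *TP11464* (31.8 to 39.2) lay above *TP05120* (23.2 to 29.6), which overlapped with *TP09781* (21.2 to 25.8).

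The share of the leading isogene was 50.8%, 50.9% and 53.6% in the parental strain and 26.3%, 31.2% and 31.6% in Δ*TP05746*, or 51.8 ± 1.56% against 29.7 ± 2.94% (mean ± SD, n = 3 libraries each). The leading gene thus took a smaller part of the sum in every mutant library. The first 3 genes together made up 84.7%, 94.1% and 90.5% in the parental strain and 71.1%, 78.0% and 76.1% in the mutant. In the parental strain 5, 3 and 3 genes were needed to reach 90% of the sum, and in the mutant 5 in each library.

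**Figure D2:**
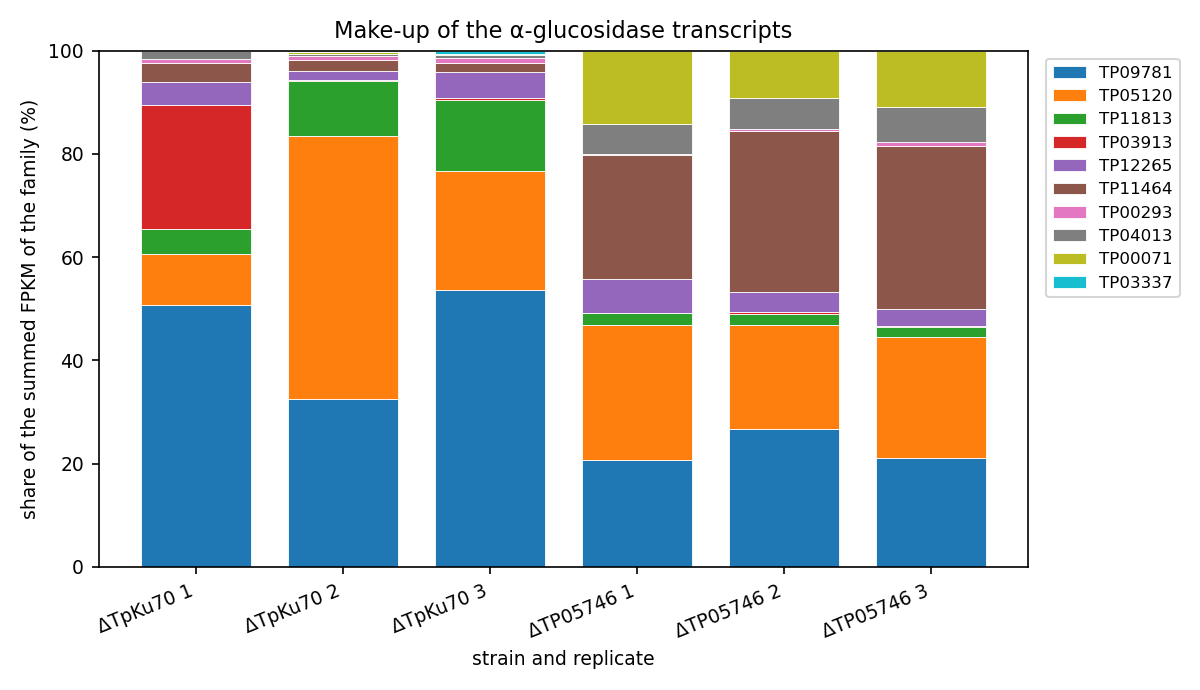
Share of each α-glucosidase gene in the summed FPKM of the 10 genes (%) for each library, with 1 bar per library and 1 colour per gene. *TP09781* (blue) held 45.6 ± 11.4% on average in Δ*TpKu70* and 22.7 ± 3.39% in Δ*TP05746*, and *TP11464* (brown) 2.5 ± 1.15% and 29.0 ± 4.2%.

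*TP09781* held 45.6 ± 11.4% of the family sum in the parental libraries and 22.7 ± 3.39% in the mutant ones (n = 3 each), a difference of −22.9 percentage points with no overlap between strains and an exact two-sided permutation p of 0.1, the smallest that 3 against 3 libraries allow. The difference ranged from −29.4 to −18.9 points when each library was left out in turn and was −25.2 points on expected counts. The shares of *TP11464* (2.5 ± 1.15% against 29.0 ± 4.2%), *TP00071* (0.242 ± 0.217% against 11.3 ± 2.57%) and *TP04013* (0.861 ± 0.631% against 6.18 ± 0.44%) were higher in every mutant library than in any parental one. The share of *TP11813* was 9.77 ± 4.56% in the parental strain and 2.11 ± 0.152% in the mutant. The mean shares of *TP05120* (27.9 ± 21.0% against 23.3 ± 3.07%) and *TP12265* (3.83 ± 1.71% against 4.61 ± 1.69%) were within the spread of the libraries.

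The summed level of the 10 genes was 153, 336 and 216 FPKM in the parental strain and 122, 115 and 112 FPKM in the mutant, or 235 ± 93 against 116 ± 5.17 (n = 3 each). It was lower in all mutant libraries than in any parental library, 2.02-fold on the means, with an exact two-sided permutation p of 0.1, the smallest possible. As a part of all deposited FPKM the family took 0.0234%, 0.0497% and 0.0302% in the parental strain and 0.0163%, 0.0168% and 0.016% in the mutant. After scaling by TMM (trimmed mean of M-values) the sums were 322 ± 147 and 87 ± 5.06, a log2 difference of −1.89 compared with −1.02 on FPKM as deposited. Leaving out Δ*TpKu70* replicate 2, the library in which *TP05120* reached 171.2 FPKM, gave −0.67, and leaving out replicate 1 gave −1.25. Without *TP05120* the sums were 156 ± 15.6 and 88.9 ± 3.19 (exact p = 0.1, n = 3 each), so the higher parental level did not rest on that gene alone, whereas without *TP03913* the groups were 222 ± 110 and 116 ± 5.26 with an exact p of 0.2 (n = 3 each). The sum without *TP09781*, which held 50.8%, 32.5% and 53.6% of the parental sums and was lower in every mutant library, was not computed. The lower sum in the mutant is therefore not read as a fall shared by the members.

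Each gene was then compared between the strains with edgeR's quasi-likelihood test on the expected counts, scaled by TMM, and a call needed a log2 fold change of 1 or more in either direction with a Benjamini-Hochberg adjusted p no higher than 0.05. Of the 10 members, 7 were at 1 FPKM or more in 3 or more libraries and were tested, and *TP00293*, *TP03337* and *TP03913* were not. Among the 7, 3 were higher in Δ*TP05746* (*TP00071*, *TP11464*, *TP04013*), 3 were lower (*TP09781*, *TP11813*, *TP12265*) and *TP05120* did not pass the threshold. Of all 8522 genes tested, 18.2% were called higher and 20.5% lower, 38.7% in all. Without Δ*TpKu70* replicate 1 the same 6 members were called in the same direction and *TP05120* was added to the lower ones, making 3 higher and 4 lower, beside 25.0% and 23.6% of all genes (48.6% in all). The median log2 fold change of the 7 members was −1.34, beside 0.03 over all genes tested. That median is the value of *TP12265*, and with 3 of the 7 higher it is not read as a shift of the whole family. Scaling by library totals in place of TMM moved the median of all genes to 0.85, and the TMM factors were 0.667 to 0.877 in the parental strain and 1.31 to 1.37 in the mutant. The directions given for the 6 called members held under both scalings.

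**Figure D3:**
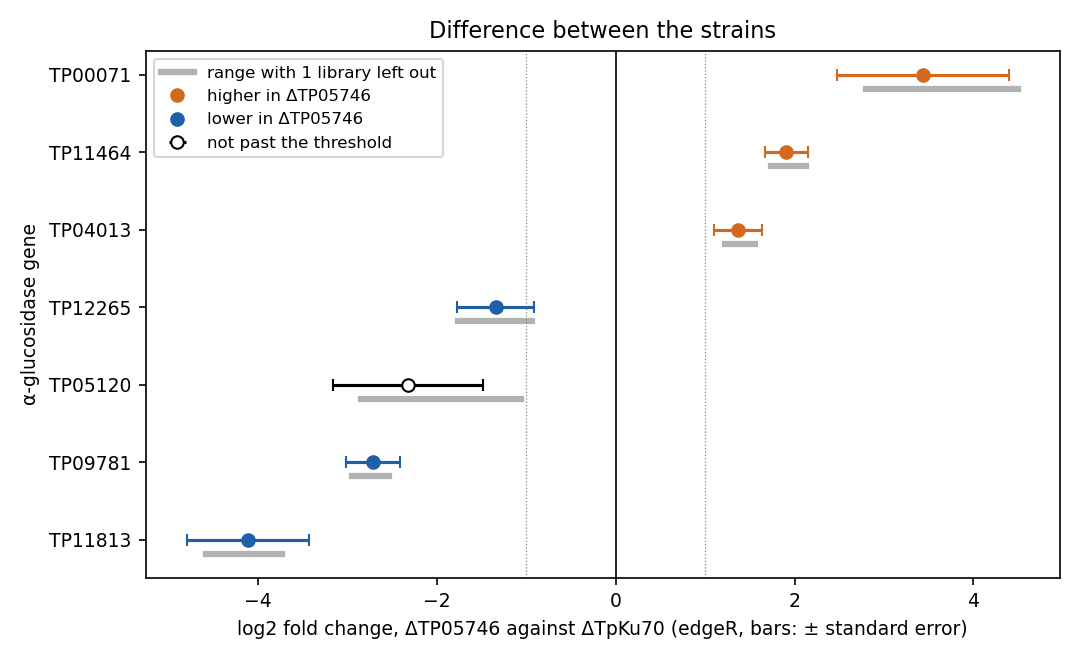
Log2 fold change of the 7 tested α-glucosidase genes, Δ*TP05746* against Δ*TpKu70*, from edgeR, with bars for the standard error, grey lines for the range when 1 library is left out, and dotted lines at a log2 fold change of 1 in either direction. *TP00071* (3.44), *TP11464* (1.91) and *TP04013* (1.37) lay to the right, *TP12265* (−1.34), *TP09781* (−2.71) and *TP11813* (−4.11) to the left, and *TP05120* (−2.32, open marker) was not past the threshold.

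Of the genes that rose, *TP11464* had the highest level in the mutant. Its TMM-scaled CPM was 15.7, 21.4 and 12.7 in the parental strain and 57, 64.8 and 65.6 in Δ*TP05746* (16.6 ± 4.4 against 62.5 ± 4.76, n = 3 each). The groups were well apart and the mutant libraries close to each other. It was higher by 1.91 on the log2 scale (SE 0.24, edgeR adjusted p = 0.00143), and 1.74 to 2.13 with any library left out. Among all genes of a library, *TP11464* stood at percentiles 50.3, 55.9 and 48.8 in the parental strain and 71.6, 74.4 and 74.1 in Δ*TP05746*, a move from the middle of the transcriptome to its upper part.

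*TP04013*, annotated as an α-glucosidase precursor of GH31, was at 11.8, 8.61 and 7.5 TMM CPM in the parental strain and 24.8, 22.5 and 24.9 in Δ*TP05746* (9.3 ± 2.23 against 24.1 ± 1.35). Its log2 fold change of 1.37 (SE 0.27, edgeR adjusted p = 0.00693) stayed between 1.22 and 1.56 with any library left out. It was the most even member within each strain: the highest library was 1.57 times the lowest in the parental strain and 1.11 times in the mutant.

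*TP00071*, the member with the starch-binding module CBM20, had 0, 27.55 and 12.65 expected counts in the parental strain and 319.87, 192.98 and 225.89 in the mutant. The lowest mutant library was above the highest parental one, and the lowest mutant CPM was 45.7 times the floor of 3 counts in Δ*TpKu70* replicate 1. The log2 fold change was 3.44 (SE 0.96, edgeR adjusted p = 0.0262), with TMM CPM of 4.18 ± 4.16 against 44.7 ± 13.4 (n = 3 each). The direction held with any library left out (2.80 without parental replicate 1, 4.50 without replicate 2), but the adjusted p rose to as much as 0.0874, and the gene was no longer called when parental replicate 3 or any 1 of the mutant libraries was left out. It was also the only member with fractional expected counts, as 2326 genes (20.0% of those listed) had, which means that some of its reads matched another gene as well and were divided between the genes by RSEM, so its level is uncertain.

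Of the genes that fell, *TP09781* was the most abundant in the parental strain. Its TMM CPM was 359, 606 and 688 in the parental strain and 83.1, 95.2 and 74.7 in Δ*TP05746* (551 ± 171 against 84.3 ± 10.3, n = 3 each). Every parental library was above every mutant library by a wide margin, replicate 1 being the lowest of the parental ones. Its log2 fold change was −2.71 (SE 0.3, edgeR adjusted p = 0.00101) and lay between −2.95 and −2.53 with any library left out. Its percentile among all genes of a library was 88.9, 92.9 and 93.4 in the parental strain and 68.8, 71.6 and 67.2 in Δ*TP05746*, so that in each mutant library it stood below *TP11464*. In mutant replicates 1 and 2 the Poisson intervals of the 2 genes overlapped.

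*TP11813* showed the largest log2 fold change of the tested members in this edgeR test. It had 84, 404 and 329 counts in the parental strain and 29, 27 and 23 in the mutant, or 20.6, 120 and 107 against 5.4, 4.72 and 4.16 TMM CPM (82.6 ± 54 against 4.76 ± 0.623). This gave a log2 fold change of −4.11 (SE 0.68, edgeR adjusted p = 0.0037), and −4.58 to −3.73 with any library left out. Within Δ*TpKu70* the highest library was 5.81 times the lowest, and within Δ*TP05746* 1.3 times. Its relation to *TP11464* also turned: the ratio of *TP11464* to *TP11813* FPKM was 0.791, 0.185 and 0.123 in the parental strain and 10.9, 14.3 and 16.4 in the mutant. In parental replicate 1, however, the Poisson intervals of *TP11464* (4.51 to 7.47) and *TP11813* (5.9 to 9.16) overlapped, so their order there could not be told.

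*TP12265* was lower in the mutant by the smallest fold of the 3, and its call was the least stable. It stood at 29.3, 33.5 and 62.9 TMM CPM in the parental strain and 24.8, 13.6 and 11 in the mutant. The groups did not overlap on this scale but did on FPKM as deposited, with 6.71, 6.42 and 11.19 against 7.93, 4.64 and 3.67. The log2 fold change was −1.34 (SE 0.43, edgeR adjusted p = 0.0403). Scaling by library totals gave −0.48 (adjusted p = 0.317), and the gene was not called after leaving out parental replicate 2 (adjusted p = 0.0628) or 3 (0.116), or mutant replicate 2 (0.121) or 3 (0.121).

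*TP05120*, an α-glucosidase of GH13, varied more between the parental libraries than any other tested member apart from *TP00071*, which had 0 counts in 1 of them. It had 163, 1858 and 530 counts in Δ*TpKu70*, where the highest library was 13.8 times the lowest in TMM CPM, and 333, 240 and 269 in Δ*TP05746*, where that ratio was 1.48. The TMM CPM was 40.1, 552 and 173 in the parental strain and 62, 41.9 and 48.6 in Δ*TP05746*, so replicate 1 of the parental strain lay below the mutant libraries while replicates 2 and 3 lay above them. The log2 fold change of −2.32 (SE 0.84) had an edgeR adjusted p of 0.0602. Without Δ*TpKu70* replicate 1 it was −2.85 (adjusted p = 0.00228), without replicate 2 it was −1.06 and not past the threshold, and DESeq2 called it (adjusted p = 0.00772), as it called 18.6% of all genes higher and 21.3% lower (39.9% in all). No direction was read for this gene.

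The other 3 members were near the lower end of detection in most libraries, and they were tested only when no filter on low values was applied, a setting under which 12.9% of 11632 genes were called higher and 15.3% lower. *TP00293*, the maltase MalT, had 11, 31 and 22 counts in the parental strain and 1, 5 and 9 in the mutant. The log2 fold change was −2.74 (SE 0.78, edgeR adjusted p = 0.0351), and the adjusted p was between 0.0752 and 0.108 without parental replicate 2 or 3 or mutant replicate 1 or 2. Without mutant replicate 3 it was −3.46 (adjusted p = 0.0472). *TP03337*, a GH13 α-glucosidase, had 1, 6 and 13 counts against 1, 1 and 0, and a log2 fold change of −3.78 (SE 1.24, adjusted p = 0.0558) that did not pass, but did without parental replicate 1 (−4.31, adjusted p = 0.0109). Neither gene exceeded 2.8 FPKM in any library, and the folds of both rest on few reads.

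*TP03913*, a GH31 α-glucosidase, was high in 1 library only. It had 724 counts in Δ*TpKu70* replicate 1, only 9 and 10 in the other parental libraries, and 3, 6 and 6 in the mutant. Its FPKM of 36.98 made it the second isogene of that library with 24.1% of the family sum, whereas it was at 0.16 to 0.53 FPKM in the other 5 libraries. The level in replicate 1 was 54.6 times that of the next library. A gene at least 10 times higher in 1 library than in every other was uncommon: 9 of 11632 genes had this in Δ*TpKu70* replicate 1, 2 in replicate 2 and 11 in replicate 3, and 7, 1 and 0 in the Δ*TP05746* replicates. Without a filter its log2 fold change was −6.04 (SE 1.83, edgeR adjusted p = 0.0426), and without Δ*TpKu70* replicate 1 it was −1.64 (adjusted p = 0.0652). The call was also lost without any 1 of the mutant libraries (adjusted p 0.12 to 0.142).

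With no filter, 3 members were called higher and 4 lower, *TP00293*, *TP03913*, *TP09781* and *TP11813*, while *TP12265* was not called (adjusted p = 0.0523). This setting called 28.2% of all genes in either direction. On TMM CPM the strains did not overlap for 9 of the 10 members, 3 higher and 6 lower in Δ*TP05746*, with *TP05120* the exception. Over all genes listed, 50.4% had no overlap, 25.4% higher and 25.0% lower. For *TP03337* this rests on scaling, since it had 1 count and 0.09 FPKM in the lowest parental library and the same in the highest mutant libraries. On FPKM as deposited 7 members did not overlap, 3 higher and 4 lower, beside 55.4% of all genes in either direction, and *TP12265*, *TP03337* and *TP05120* overlapped.

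The members divided into 2 groups by transcript length, read from the number of expected counts that 1 FPKM stood for in Δ*TpKu70* replicate 3. This was 10.6 to 11.1 for *TP00293*, *TP03337*, *TP05120*, *TP11813* and *TP11464*, and 17.2 to 19.2 for *TP00071*, *TP03913*, *TP04013*, *TP09781* and *TP12265*. The 3 annotated genes of the shorter group were those with GH13 and the 3 of the longer group those with GH31, and no family was assigned to the others from length. Of the shorter genes *TP11464* was called higher, *TP11813* lower and *TP05120* was not called. The 2 below the filter, *TP00293* and *TP03337*, had negative log2 fold changes without it. Of the longer genes *TP00071* and *TP04013* were called higher and *TP09781* and *TP12265* lower. The longer genes summed to 124, 119 and 129 FPKM in the parental strain and 57.4, 52.8 and 47.1 in Δ*TP05746*, without overlap. Most of each parental sum was *TP09781*, at 77.76, 109.32 and 115.41 FPKM, against 25.08, 30.6 and 23.41 in the mutant. In parental replicate 1 *TP03913* added 36.98 FPKM. The difference in these sums is therefore not read as a trait of the longer genes. The shorter genes summed to 29.3, 217 and 86.5 FPKM in the parental strain and 64.3, 62.1 and 64.6 in Δ*TP05746*, with the mutant inside the range of the parental libraries, and their share of the family sum was 19.1%, 64.6% and 40.1% against 52.8%, 54.0% and 57.8%. Much of that parental range came from *TP05120*, at 14.93, 171.2 and 49.85 FPKM.

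In fungal genomes genes of one pathway often lie side by side, so the genes whose number is 1 below or 1 above that of a member were examined. Genome positions were not used here, and adjacent numbers do not by themselves prove adjacency. Of the 20 such numbers, 17 were listed and 16 tested, and 3 were called higher and 6 lower, beside the 18.2% and 20.5% of all genes. The calls of *TP03912*, *TP05119* and *TP11812* were each lost without parental replicate 2 or 3 and without mutant replicate 2 or 3.

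**Figure D4:**
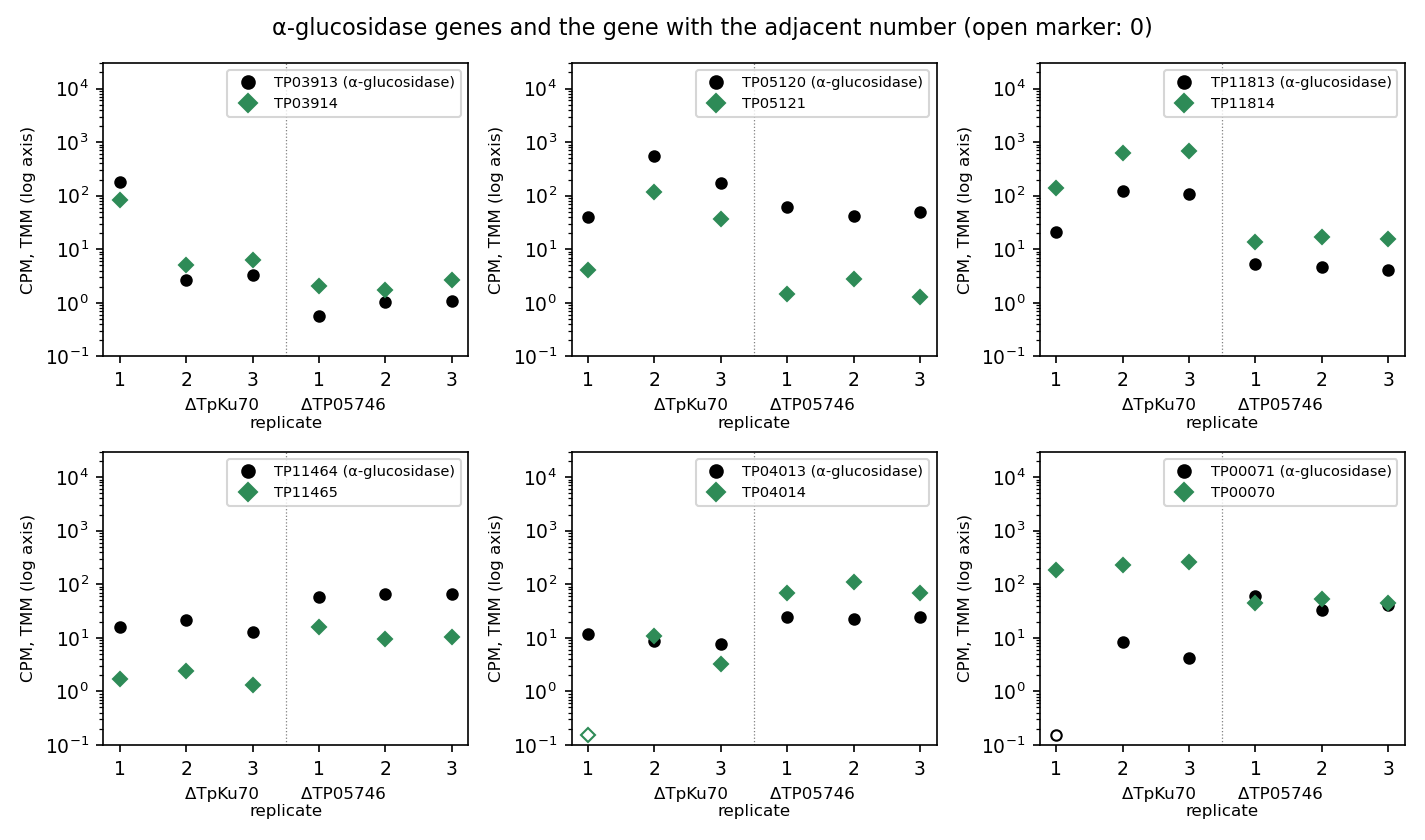
TMM CPM (log axis) in each library of 6 α-glucosidase genes (black circles) and of a gene with the adjacent number (green diamonds), the pairs being shown after their values were seen, with replicates 1 to 3 of Δ*TpKu70* left and of Δ*TP05746* right of the dotted line and open markers for 0. *TP03914* was highest in the same library as *TP03913*, whereas *TP00070* was lower in Δ*TP05746* and *TP00071* higher.

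*TP03914*, annotated with the oxidative families AA3 and AA8, was high in the same single library as *TP03913*: it had 334 counts in Δ*TpKu70* replicate 1, 17 and 19 in the other parental libraries, and 11, 10 and 15 in the mutant. Its log2 fold change of −3.83 (SE 1.18, edgeR adjusted p = 0.0362) was past the threshold, but not when any 1 mutant library was left out (adjusted p 0.095 to 0.113). Without Δ*TpKu70* replicate 1 it was −1.37 (adjusted p = 0.0199). In its correlation with *TP03913* over the 6 libraries it ranked 3 of 6230 genes. *TP05121*, a trehalose transport-related protein, followed the uneven parental levels of *TP05120*, with 17, 396 and 115 counts in Δ*TpKu70*, and stood at 8, 16 and 7 in the mutant. Its log2 fold change was −4.81 (SE 1.17, edgeR adjusted p = 0.0158), or −3.45 without parental replicate 2, and the call was lost without Δ*TP05746* replicate 1 (adjusted p = 0.0659) or 3 (0.0617). The pattern in Δ*TpKu70* was shared by both genes, while in Δ*TP05746* *TP05120* kept 240 to 333 counts and *TP05121* had 16 or fewer.

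*TP11814*, for which no annotation was used, was more abundant than its numbered neighbour *TP11813* and fell with it, from 572, 2134 and 2073 counts to 74, 96 and 86 (log2 fold change −4.97, SE 0.64, edgeR adjusted p = 0.00157). *TP11465* had 7, 8 and 4 counts in the parental strain and 85, 55 and 57 in the mutant (2.70, SE 0.39, adjusted p = 0.00234) and rose as *TP11464* did. *TP04014*, the α-amylase Amy13A, rose as *TP04013* did, from 0, 36.21 and 10.08 expected counts to 360.39, 635.05 and 372.98 (4.16, SE 0.99, adjusted p = 0.0149). *TP04014* has fractional counts, its log2 fold change was 3.51 without parental replicate 1 and 5.77 without replicate 2, and its call was lost without Δ*TP05746* replicate 2 (adjusted p = 0.0512).

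*TP00070*, a membrane transporter, went the other way from *TP00071*, with 754, 764 and 795 counts in the parental strain and 242, 308 and 251 in the mutant (−2.22, SE 0.2, edgeR adjusted p = 0.000522). *TP00292*, the gene numbered before the maltase *TP00293* and annotated as similar to the regulator BglR, had 15.8, 0 and 4.24 expected counts in the parental strain and 13.71, 0 and 14.41 in Δ*TP05746* and was not called (−0.08, SE 1.28, adjusted p = 0.961). Both genes numbered next to *TP09781*, *TP09780* and *TP09782*, were tested and not called.

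For 5 members the genes with the most similar profile were sought by Pearson correlation of log2(TMM CPM + 1) over the 6 libraries, among genes with a mean of at least 10 CPM. These values describe likeness in 6 libraries from 2 strains, where any pair of genes that differ between the strains in the same way correlates highly. *TP09781* was most like *TP01484*, a dual specificity phosphatase, *TP01997* and *TP11544* (0.999 each). *TP11464* was most like *TP09297* (0.999), *TP05626* (0.999) and *TP04212* (0.998), and *TP00071* most like *TP11151* (0.999), *TP05739* (0.997) and *TP07589* (0.994). *TP04212* had 27, 32 and 14 counts in the parental strain and 385, 472 and 504 in the mutant. *TP05120* was most like *TP00550* (0.995), *TP02376* (0.991) and *TP06708* (0.989), all highest in Δ*TpKu70* replicate 2, and *TP03913* most like *TP13392* (0.996), *TP01502* (0.994) and *TP03914* (0.993), all highest in Δ*TpKu70* replicate 1. For these 2 members the likeness rests mainly on differences among the parental libraries, and the correlation takes no account of their size. *TP13392* was at 104 CPM in Δ*TpKu70* replicate 1 and 50.5 to 60.9 elsewhere, whereas *TP03913* was at 178 and 0.559 to 3.26.

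The α-glucosidase genes were set beside the other starch-degrading genes and regulators that the study named, a list it chose partly on these libraries, so that the list is not independent evidence of its direction. Of 7 genes, 6 were tested, 5 were called higher in Δ*TP05746* and 0 lower (edgeR, with 0 lower at an unadjusted p under 0.05, 0 by DESeq2 and 0 by limma), with a median log2 fold change of 2.76, beside 18.2% of all genes called higher and 20.5% lower. With no filter the α-amylase *TP07411* was called lower (−3.93, adjusted p = 0.0321). It had 4, 22 and 7 counts in the parental strain and 2, 0 and 1 in the mutant. This call was lost without parental replicate 2 (edgeR adjusted p = 0.123) or 3 (0.055), or without any 1 mutant library (0.0626 to 0.101). The glucoamylase *TP12319*, which cuts glucose from the ends of starch chains, had 2, 2 and 1 counts in the parental strain and 159, 191 and 190 in the mutant (6.01, SE 0.33, adjusted p = 0.000186). The α-amylase *TP03368* had 4, 0 and 0 counts against 45, 41 and 47 (4.35, SE 0.86, adjusted p = 0.00741). Without parental replicate 1 both remaining parental libraries are at 0 and the fitted value is 8.21, which is no bound, and limma on log2(FPKM + 1) gave 2.19.

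The regulator genes *TP09286* (AmyR) and *TP06128* (Rfx1) were moderately higher. *TP09286* had 161, 140 and 119 counts in the parental strain and 376, 701 and 438 in the mutant (1.18, SE 0.25, edgeR adjusted p = 0.00897), and without Δ*TP05746* replicate 2 its log2 fold change of 0.90 was under the minimum of 1. *TP06128* had 163, 118 and 67 counts against 418, 488 and 477 (1.36, SE 0.25, adjusted p = 0.00557).

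Among 9 genes annotated for trehalose metabolism or transport or as sugar transporters, also from the list the study chose on these libraries, 8 were tested, 2 were called higher and 5 lower, beside 18.2% and 20.5% of all genes. The 5 lower were all annotated for transport and the 2 higher for trehalose metabolism. The sugar transporter *TP05611* had 75, 96 and 49 counts in the parental strain and 8, 5 and 11 in the mutant (−3.83, SE 0.44, edgeR adjusted p = 0.00107). The trehalase *TP05569* and the trehalose-phosphate synthase *TP04086* were at 0 in all Δ*TpKu70* libraries and at 14.84, 107.11 and 102.15 and at 36.87, 162.09 and 102.46 expected counts in Δ*TP05746*, with fractional counts from reads shared between genes. The calls of *TP04950* (−1.03), *TP05495* (−1.29) and *TP04926* (−1.74) were lost when replicate 2 or 3 of either strain was left out and under library totals, and DESeq2 called 2 higher and 6 lower (18.6% and 21.3% of all genes) while limma on log2(FPKM + 1) called 2 higher and 1 lower (36.6% and 12.5% of all genes, 49.2% in all).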

How the data were processed

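RNA of 3 Δ*TpKu70* and 3 Δ*TP05746* libraries was compared, grouped by the genotype in the sample labels. The authors deposited expected counts and FPKM values per gene, both made with RSEM. The study's methods name BWA and Bowtie2 for mapping to the genome of strain 1-95, and the submitters' processing notes name RSEM 1.2.12, Bowtie2 2.1.0, BWA 0.7.10-r789 and, with no version, DESeq2. The expected counts were deposited without scaling, and the FPKM values are scaled by the authors for gene length and library size. Where RSEM divides reads between similar genes the counts are fractional. A gene without a line in a library was read as 0.

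Expected counts were rounded to whole numbers and tested in edgeR (quasi-likelihood, two-sided, strain as the only term, TMM factors) on all genes that were at 1 FPKM or more in 3 or more of the 6 libraries, with Benjamini-Hochberg adjustment over these genes. A call needed an adjusted p no higher than 0.05 with a log2 fold change of 1 or more in either direction. Standard errors were obtained by dividing the size of the log2 fold change by √F, with F from the test, and are rough where counts are near 0. Where 3 libraries are compared with 3 by sums or shares, an exact two-sided permutation test was used. Alternatives were no filter, a filter of FPKM 5, library totals, median-ratio factors, DESeq2, limma on log2(FPKM + 1) and log2(FPKM + 0.1), the replicate number as a block, and each library left out. The combination of no filter with each library left out was added after the data were seen. The pipeline was also run on simulated counts. Unlike these data, they had the same spread for every gene, few changed genes and no library standing apart. They therefore do not measure how often calls are wrong here. Tools were R 4.3.3, edgeR 4.0.16, limma 3.58.1, DESeq2 1.42.0, Python 3.11.15, SciPy 1.17.1, pandas 2.3.3 and matplotlib 3.10.9.

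The genes named are the 10 members, *TP05746*, 7 other starch genes, 9 trehalose and sugar uptake genes, the genes with the number next to a member's, and the 3 genes most like each of 5 members. The members and lists were chosen with earlier results of these data known. The study itself named the members and most of the starch genes as differing between these libraries. Annotations come from the part of the study's gene list at hand, a list of genes that the study chose on these libraries. No sequences are shown, because the reference genes at hand carry other identifiers. Fold changes of the named genes that were not tested are given only without the filter.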

Additional observations from a re-analysis of the deposited data

How the results depend on the processing

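The members called higher numbered 2 to 3 and those called lower 2 to 4 over all alternatives. Over the same alternatives 12.9% to 38.6% of all genes were called higher and 12.4% to 24.3% lower. *TP04013*, *TP09781*, *TP11464* and *TP11813* kept their call under all 14 alternatives in which each was computed, and *TP12265* lost it under 9 and *TP00071* under 5. *TP12265* was at −0.48 to −1.76, and *TP05120* gained the call under 2 of 14 (log2 fold change −2.85 to −0.89, adjusted p 0.00228 to 0.372). Library totals called 3291 genes higher and 1059 lower and limma on log2(FPKM + 1) 3123 and 1069, compared with 1550 and 1749 in edgeR with TMM. The other starch genes called higher were 3 to 5 with 1 library left out, beside 13.3% to 25.0% of all genes. They were 3 without Δ*TP05746* replicate 2 (13.5% of all genes). With no filter 1 was called lower (*TP07411*, −3.93, edgeR adjusted p = 0.0321), beside 15.3% of all genes. That call was lost in 5 of the 6 fits with 1 library left out. *TP00292*, called under no alternative, changed sign: it was at 0.64 with library totals, 0.25 and 0.50 with limma at pseudocounts of 1 and 0.1, 0.09 with the replicate block, and −0.64 to 1.39 with 1 library left out. The cause was not tested. With the replicate number as a block, 2 members were higher and 2 lower, beside 16.2% and 17.7% of all genes, and 2892 genes were called in place of 3299. The same-numbered libraries correlated at −0.0781, −0.038 and 0.0131 in their deviations from the strain means, so no shared deviation was seen. Whether same-numbered libraries were grown or handled together cannot be told from this, and the labels do not state it. Depth limited *TP00293*, *TP03337* and *TP03913*, none above 31 counts outside Δ*TpKu70* replicate 1.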
